A study of Danio rerio with 8 samples.

Results

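The unfolded protein response of the endoplasmic reticulum (ER) was examined in retinas of *bbs2* mutant zebrafish through 10 genes, *xbp1*, *hspa5*, *hsp90b1*, *atf6*, *ern1*, *dnajb9b*, *dnajc3a*, *pdia4*, *sdf2l1* and *sel1l*. They were taken by gene symbol from a count table of 32520 genes, each symbol matched 1 gene, and all 10 passed the filter on low counts that left 17144 genes for testing. The study compared 4 samples of retinas of homozygous *bbs2* mutants (*bbs2* -/-) with 4 samples of retinas of wild-type siblings. Both groups were at 6 months and taken after overnight dark adaptation for 16 to 20 h. Each sample pooled a pair of retinas, and whether both came from the same fish was not stated. Fish of both sexes were used, the retinas were dissected with little pigment epithelium, and no source used here names the mutant allele. RNA was depleted of ribosomal RNA and sequenced as stranded total RNA. Bbs2 is a subunit of the BBSome, a complex that carries membrane proteins in and out of cilia, and the light-sensing outer segment of a photoreceptor is a modified cilium.

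Proteins destined for membranes or secretion fold in the ER, helped by chaperones such as the Hsp70 family member BiP (*hspa5*). When unfolded proteins accumulate, 3 sensors in the ER membrane respond. Ire1 (*ern1*) splices the *xbp1* transcript so that it encodes an active transcription factor, Atf6 is cut in the Golgi to release another, and Perk (*eif2ak3*) phosphorylates the translation factor eIF2α. Both transcription factors raise the genes for chaperones, disulfide isomerases and the machinery that removes misfolded proteins. Photoreceptors make large amounts of opsin in the ER. Gene counts do not show the splicing of *xbp1*, the cutting of Atf6 or any phosphorylation, so what follows concerns transcript levels only.

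Total gene counts ran from 7289910 to 11496801 in the mutant libraries and from 6279179 to 8442827 in the wild-type libraries. *bbs2* itself was at 28.4, 27.3, 28.8 and 28.6 CPM (counts relative to library size, corrected for library composition) in mutants, against 39.8, 45.5, 42.6 and 42.8 CPM in wild-type siblings, and its log2 fold change was -0.59 (edgeR, adjusted p = 8.82e-05). Markers of other cells differed between the genotypes. The counts of markers below stand beside 15.2% of all tested genes called higher in mutants and 13.0% called lower. Summed markers of the pigment epithelium lay between 1051.5 and 1472.1 CPM in mutants and between 59.3 and 161 CPM in wild-type siblings, with 10 of 11 tested markers higher and none at 0. Markers of microglia and macrophages summed to 540 to 650 CPM in mutants and 256 to 333 CPM in wild-type siblings, with 14 of 14 tested markers higher. Most of these sums was *apoeb*, with a mean of 343 CPM in mutants and 211 CPM in wild-type siblings. Its log2 fold change was 0.70, against a median of 2.0 for the tested markers of this list. Neutrophil markers summed to 21.3 to 49.4 CPM in mutants and 3.25 to 4.64 CPM in wild-type siblings, with 3 of 4 tested markers higher. Most of that sum in mutants was *mmp9* (mean 14.4 CPM) and *csf3r* (13.9 CPM), while *mpx* and *npsn* had too few counts for a test. In these lists at least *lyz*, *mmp9*, *marco*, *tyr*, *slc45a2*, *spi1b*, *slc7a7* and *ctss2.2* passed the filter through the mutants, so it favoured their calls. They averaged 0.35, 0.499, 0.559, 0.497, 0.782, 1.02, 1.26 and 1.0 CPM in wild-type siblings. Of the cone markers 18 of 22 were lower and 2, the opsins *opn1mw3* and *opn1lw1*, were higher (log2 fold changes 1.61 and 0.99, edgeR adjusted p of 0.0104 and 0.00682), with sums of 10049.5 to 12392.0 CPM in mutants and 21890.1 to 23163.4 CPM in wild-type siblings. Of the rod markers 2 of 13 were higher, near the share of all tested genes, and 1 was lower. Their sums were 23652.5 to 33293.3 CPM in mutants and 20995.2 to 27178.9 CPM in wild-type siblings. Most of these sums was *rho*, with a mean of 19577.1 CPM in mutants and 12959.4 CPM in wild-type siblings. The higher markers were *rho* and *gngt1* (log2 fold changes 0.60 and 0.38, edgeR adjusted p of 0.00305 and 0.0165). The lower one was *pde6b* (-0.37, edgeR adjusted p = 0.028). Of the Müller glia markers 3 of 12 were higher and 2 lower. By the rod and cone sums, the labelled tissue was present in both genotypes. Of the markers of inner retinal neurons 7 of 20 were lower and none higher. They summed to 2992.2 to 3247.3 CPM in mutants and 3490.3 to 3882.1 CPM in wild-type siblings. In such bulk samples, fewer cells of a type and less RNA per cell cannot be told apart.

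Of the 10 genes, 6 rose in the mutants (*xbp1*, *hspa5*, *hsp90b1*, *pdia4*, *dnajc3a* and *atf6*), none fell in edgeR, DESeq2, voom or limma on TPM, and 4 did not pass the test (*ern1*, *dnajb9b*, *sdf2l1* and *sel1l*). The call of *atf6* was lost in 11 of 16 alternative analyses, and that of *dnajc3a* in 2. Over all tested genes, 15.2% were called higher in mutants and 13.0% lower, at an adjusted p of 0.05 in edgeR's quasi-likelihood test. The same 6 genes were those in which every mutant library lay above every wild-type library, a pattern that 15.4% of all tested genes had. The median log2 fold change of the 10 genes was 0.68, against -0.01 for all genes tested, and all 10 values were above 0. Of these, *dnajb9b* passed the filter on low counts through its mutant libraries. It had 16 to 24 counts there, against 1 to 12 in wild-type siblings, so the filter favoured a value above 0 for it. Of all calls, 54.0% were higher in mutants, or 71.3% where libraries were scaled by their totals alone, which moved the median of all genes to 0.09. Among the genes called, the change was largest for *xbp1* and *hspa5*, intermediate for the other folding factors and smallest for the sensor *atf6* (log2 fold change 0.20). The sensor *ern1* and the degradation adaptor *sel1l*, which were not called, had log2 fold changes of 0.07 and 0.13. The sensor gene *eif2ak3*, outside the 10, had one of 0.55.

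**Figure D1:**
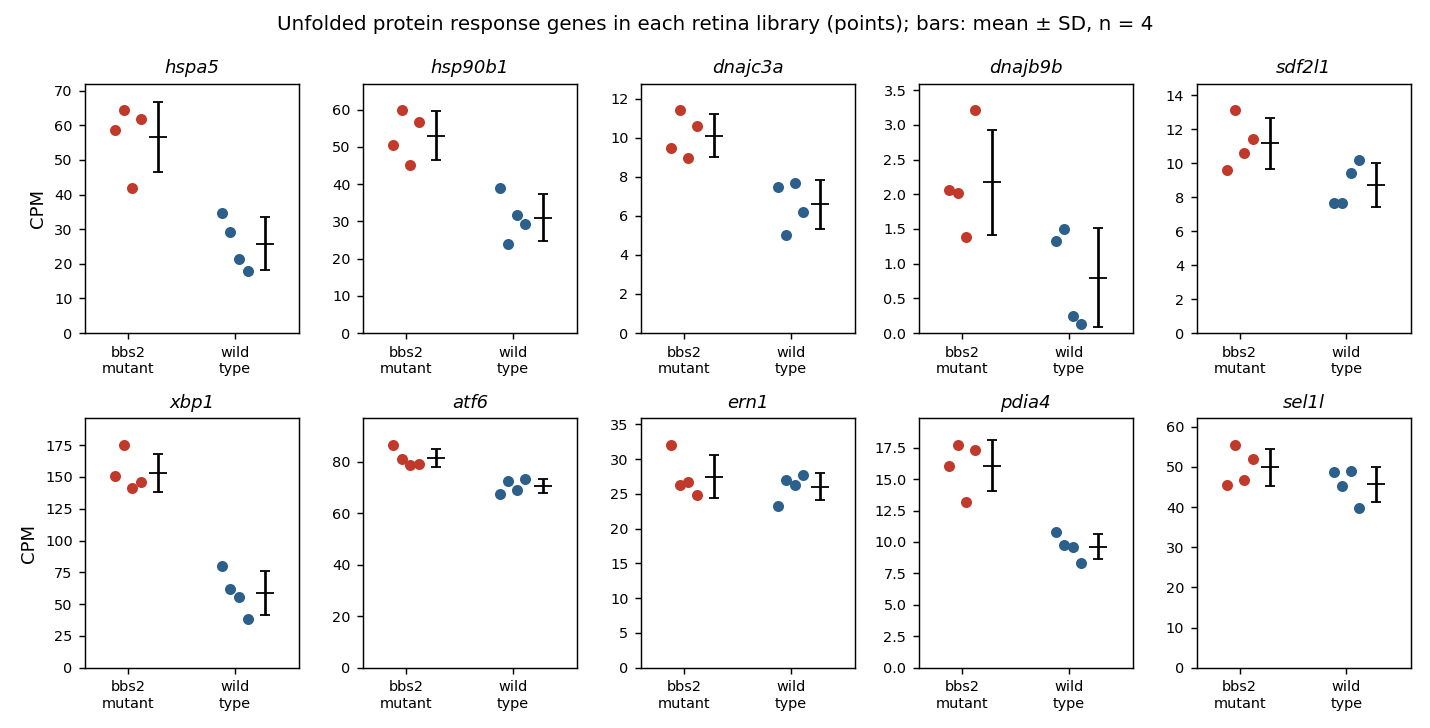
Level in CPM (linear axis from 0) of the 10 genes in each library, with *bbs2* mutants in red and wild-type siblings in blue, and the mean ± SD (n = 4) as bars. The groups do not overlap for *hspa5*, *hsp90b1*, *dnajc3a*, *xbp1*, *atf6* and *pdia4*, and they overlap for *dnajb9b*, *sdf2l1*, *ern1* and *sel1l*.

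Among the chaperones, *hspa5*, which encodes BiP, the major Hsp70 of the ER lumen and a partner that holds the stress sensors inactive, was at 58.5, 64.3, 41.8 and 61.7 CPM in mutants, against 34.8, 29.3, 21.3 and 17.8 CPM in wild-type siblings. Even the lowest mutant library was above the highest wild-type library. The fold change was 2.2 (log2 fold change 1.14, SE 0.215, edgeR adjusted p = 0.00356). *hsp90b1*, the Hsp90 of the ER (Grp94), was at 50.4, 59.8, 45.0 and 56.7 CPM in mutants, against 39.0, 23.9, 31.6 and 29.3 CPM in wild-type siblings. Its groups did not overlap either, and the fold change was 1.72 (log2 fold change 0.78, SE 0.134, edgeR adjusted p = 0.000537). Both genes, and *dnajb9b*, overlap another gene in the RefSeq annotation, and the strand setting of the counting was not stated, so their counts could include reads of that neighbour.

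The J proteins, co-chaperones that deliver clients to BiP, were given by *dnajc3a* and *dnajb9b*. *dnajc3a*, whose mammalian counterpart is known as p58IPK, was at 9.46, 11.4, 8.96 and 10.6 CPM in mutants, against 7.46, 5.0, 7.68 and 6.19 CPM in wild-type siblings. The groups were separate, with a log2 fold change of 0.62 (SE 0.18, edgeR adjusted p = 0.0176). This call was lost without mutant 2 (edgeR adjusted p = 0.0604) and without wild-type 2 (edgeR adjusted p = 0.0585).

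*dnajb9b* encodes a J protein whose mammalian counterpart (ERdj4) is a target of Xbp1. It had only 20, 21, 16 and 24 counts in mutants, against 8, 12, 2 and 1 counts in wild-type siblings. At 2.06, 2.02, 1.39 and 3.21 CPM in mutants, against 1.33, 1.5, 0.244 and 0.126 CPM in wild-type siblings, the groups overlapped between mutant 3 and wild-type 2. Its log2 fold change, 1.44, was the largest of the 10 and also the least certain (SE 0.558, 95% interval 0.26 to 2.63, edgeR adjusted p = 0.0665). Without wild-type 2 the log2 fold change was 2.02 and the gene was called (edgeR adjusted p = 0.0309). *sdf2l1*, which in mammals partners with ER J proteins, was at 9.57, 13.1, 10.6 and 11.4 CPM in mutants, against 7.63, 7.63, 9.39 and 10.2 CPM in wild-type siblings. Mutant 1 lay below wild-type 4, and the gene was not called (log2 fold change 0.35, 95% interval 0.00 to 0.70, edgeR adjusted p = 0.128).

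*xbp1*, the transcription factor of the Ire1 arm, had the largest change among the genes called. It was at 151, 175, 141 and 146 CPM in mutants, against 79.6, 62.3, 55.5 and 38 CPM in wild-type siblings. The lowest mutant library was well above the highest wild-type library, and the fold change was 2.61 (log2 fold change 1.39, SE 0.198, edgeR adjusted p = 0.00104). Wild-type libraries varied more around their mean than mutant ones, with a coefficient of variation of 9.78% in mutants and 29.2% in wild-type siblings. *ern1*, the sensor that splices *xbp1*, was at 32.0, 26.3, 26.7 and 24.9 CPM in mutants, against 23.2, 27.0, 26.3 and 27.7 CPM in wild-type siblings. The ranges overlapped widely, and the log2 fold change of 0.07 had a 95% interval of -0.16 to 0.31 (edgeR adjusted p = 0.667).

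*atf6*, the sensor of the second arm, had the smallest coefficient of variation of the 10 genes, 4.31% in mutants and 4.00% in wild-type siblings. It was at 86.4, 81.0, 78.8 and 79.2 CPM in mutants, against 67.5, 72.4, 68.9 and 73.4 CPM in wild-type siblings. All mutant libraries were above all wild-type libraries, but the fold change was only 1.15 (log2 fold change 0.20, SE 0.072, edgeR adjusted p = 0.0442). This call was lost when any single library other than mutant 3 was left out (edgeR adjusted p of 0.119, 0.085 and 0.0619 without mutants 1, 2 and 4, and 0.106, 0.0665, 0.0998 and 0.0529 without wild-types 1 to 4). It was also lost in DESeq2 (adjusted p = 0.0517) and in the deposited TPM, which are scaled per transcript length, where the groups overlapped (limma adjusted p = 0.183).

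*pdia4*, a disulfide isomerase that forms and rearranges disulfide bonds in folding proteins, was at 16.0, 17.7, 13.2 and 17.3 CPM in mutants, against 10.8, 9.76, 9.63 and 8.34 CPM in wild-type siblings. The groups were separate, with a fold change of 1.67 (log2 fold change 0.74, SE 0.146, edgeR adjusted p = 0.00123). *sel1l*, the adaptor of the ubiquitin ligase that clears misfolded ER proteins, was at 45.4, 55.4, 46.8 and 52.0 CPM in mutants, against 48.6, 45.3, 49.0 and 39.7 CPM in wild-type siblings. These ranges overlapped, and the log2 fold change was 0.13 (95% interval -0.08 to 0.33, edgeR adjusted p = 0.358).

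**Figure D2:**
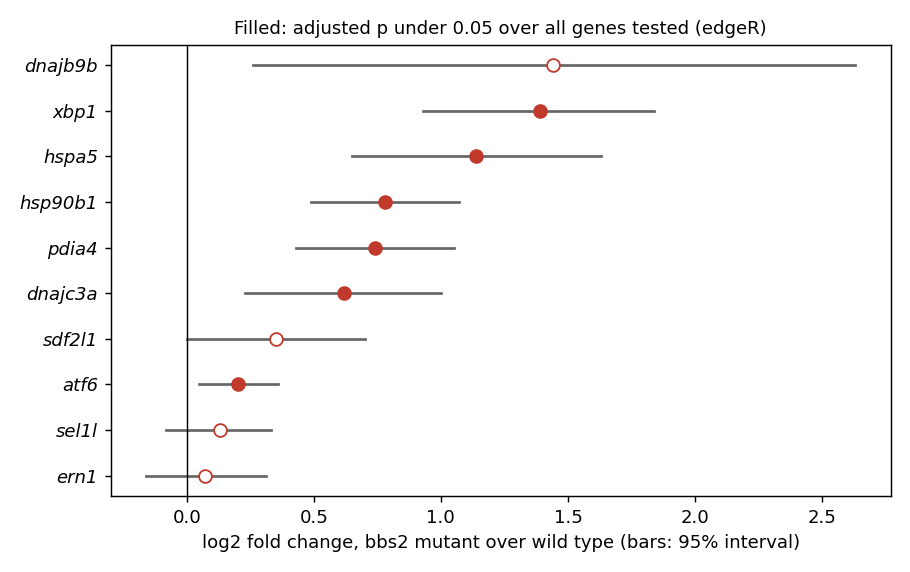
Log2 fold change of each of the 10 genes, *bbs2* mutant over wild type, with a 95% interval derived from the edgeR test. Filled points had an adjusted p under 0.05 over all genes tested. *xbp1* at 1.39 and *hspa5* at 1.14 lie farthest from 0 among the filled points, and the widest interval, 0.26 to 2.63, is that of *dnajb9b*.

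Per length, in TPM, the order of the genes differed between the genotypes. In mutants *xbp1* came first at 121 ± 16.1 TPM (SD, n = 4 for each mean here), followed by *hspa5* at 45.6 ± 10.4, *hsp90b1* at 36 ± 5.74 and *atf6* at 35.0 ± 4.67 TPM, and these last 3 lay within their spread of each other. In wild-type siblings *xbp1* also came first, at 45.8 ± 13.4 TPM, but *atf6* was next at 29.8 ± 1.32 TPM, above *hsp90b1* at 20.6 ± 4.00, *hspa5* at 20.3 ± 6.01 and *sel1l* at 19.3 ± 2.28 TPM, which were not separated by their spread. *dnajc3a* was at 9.10 ± 1.24 TPM in mutants and 5.84 ± 1.15 TPM in wild-type siblings, and *dnajb9b* was lowest in both, at 3.97 ± 1.51 TPM in mutants and 1.43 ± 1.28 TPM in wild-type siblings. Summed over the 10 genes, the level was 336, 328, 242 and 312 TPM in mutants, against 192, 170, 169 and 136 TPM in wild-type siblings.

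Some libraries of a genotype were high or low for many of the 10 genes. Mutant 2 was the highest mutant library for 7 of the 10 and mutant 3 the lowest for 7, while wild-type 1 was the highest and wild-type 4 the lowest wild-type library for *xbp1*, *hspa5* and *pdia4* alike. Mutant 3 also had the lowest summed markers of the pigment epithelium among mutants, 1051.5 CPM against 1435.2 to 1472.1 CPM in the other mutants, and the lowest of microglia, 540 CPM. It was likewise the lowest mutant library for the neutrophil sum, at 21.3 CPM, and for the sum of B and plasma cell markers, at 57.0 CPM. By contrast, mutant 3 was the highest mutant library for the cone, rod and Müller glia sums, at 12392.0, 33293.3 and 1712.3 CPM. Among wild-type siblings the marker sums did not share an order: wild-type 4, lowest for *xbp1* at 38 CPM, had the highest pigment epithelium sum, 161 CPM, while wild-type 1, highest for *xbp1*, had the highest microglia sum, 333 CPM against 256 to 272 CPM in the other wild-type libraries. The B and plasma cell sums of wild-types 1 to 4, 5.14, 4.63, 3.05 and 2.53 CPM, stood in the same order as their *xbp1* and *hspa5* levels. In mutants 1 to 4 these sums, 114, 71.7, 57.0 and 111 CPM, did not, since *xbp1* and *hspa5* were highest in mutant 2. Mutant 2 was not the highest mutant library for the pigment epithelium (1435.2 CPM), microglia (631 CPM) or neutrophil (30.8 CPM) sums either. The part of these cells in the changes of the 10 genes was not tested. B cells and plasma cells, secretory cells with a large ER, were given by 9 marker genes, of which only *prdm1a*, a transcription factor also expressed in other cells, passed the filter. It had 88.0 CPM in mutants and 3.25 CPM in wild-type siblings (log2 fold change 4.78, edgeR adjusted p = 3.35e-05) and made up most of the summed markers, 57.0 to 114 CPM in mutants and 2.53 to 5.14 CPM in wild-type siblings. The receptor genes *cd79a* and *cd79b* had 7 and 3 counts over all mutants, against 14 and 0 over all wild-type siblings, and *pax5* and *irf4b* were at 0.

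The rest of the pathway was described by lists written for each arm and each step of ER folding. They were chosen with earlier results of these data known, so their counts are description only. Apart from the 10 genes, and leaving out a list of their paralogs, these lists held 167 tested genes, of which 46 were higher in mutants and 8 lower, with a median log2 fold change of 0.19. That is 27.5% higher and 4.79% lower, against the 15.2% and 13.0% of all tested genes given above. Paralogs that also stood in another list, such as *dnajc3b* and *pdia3*, which was called higher, were kept in these counts. Without mutant 4 the number higher was 30, and without wild-type 4 the number lower was 5. The counts of each single list below stand beside the same 15.2% higher and 13.0% lower over all tested genes.

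Among chaperones and their partners, 3 genes rose beside those above. Of the other 16 tested genes of the list of ER Hsp70, Hsp90 and J proteins, 3 rose and none fell (none at an unadjusted p under 0.05 in edgeR, and none called in DESeq2, voom or limma on TPM), and the median log2 fold change was 0.30. The share that rose was close to the 15.2% of all tested genes called higher. *hyou1*, which exchanges the nucleotide of BiP, was at 40.0 ± 10.9 CPM in mutants and 19.8 ± 1.21 CPM in wild-type siblings (log2 fold change 1.00, edgeR adjusted p = 0.00206). *manf*, a secreted neurotrophic factor that also resides in the ER, had a log2 fold change of 0.98 (edgeR adjusted p = 0.0032), and the J protein *dnajb11* one of 0.86 (edgeR adjusted p = 0.00086). *creld2*, a stress-induced ER protein in mammals, did not pass the test (log2 fold change 0.61, edgeR adjusted p = 0.0962).

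Enzymes of oxidative folding form and reshuffle disulfide bonds. Of the 25 tested disulfide isomerases and oxidases other than *pdia4*, 8 rose and 1 fell. *p4hb*, the archetypal disulfide isomerase, was at 112 ± 11.8 CPM in mutants and 67.5 ± 2.41 CPM in wild-type siblings (log2 fold change 0.72, edgeR adjusted p = 8.1e-06). *pdia6* (0.71), *ero1b*, the oxidase that recharges isomerases (0.67), and *pdia3*, which serves glycoproteins (0.57), had log2 fold changes close to that of *pdia4*, 0.74. The one that fell was *tmx3a*, a membrane-bound thioredoxin-like protein, with 166 ± 15.3 CPM in mutants and 237 ± 10.7 CPM in wild-type siblings (log2 fold change -0.51, edgeR adjusted p = 9.95e-05).

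Glycoprotein folding genes rose in part. In the calnexin cycle list 5 of 15 tested genes rose and none fell (likewise none at an unadjusted p or by the other tools). The calreticulin gene *calr3b* had 22.8 ± 4.01 CPM in mutants and 11 ± 1.97 CPM in wild-type siblings (log2 fold change 1.05, edgeR adjusted p = 0.00015), *calr* had a log2 fold change of 0.49 (edgeR adjusted p = 0.00404), and *canx*, the membrane-bound calnexin, did not pass the test (log2 fold change 0.14, edgeR adjusted p = 0.136). Of the oligosaccharyltransferase, the complex that attaches N-glycans, 7 of 12 tested subunits rose and none fell (again none at an unadjusted p or by the other tools), with a median log2 fold change of 0.34. The catalytic subunit *stt3a* had a log2 fold change of 0.44 (edgeR adjusted p = 0.00239) and the small subunit *krtcap2* one of 0.87 (edgeR adjusted p = 0.0067). The calnexin count was 3 without mutant 2, without mutant 4 or without wild-type 2, 2 in limma on TPM and 9 with libraries scaled by their totals alone.

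In the list of the translocon, through which new chains enter the ER, 10 of 35 tested genes rose and 1 fell. The 10 include *snd1* (log2 fold change 0.27, edgeR adjusted p = 0.00657), a nuclease gene listed by its symbol, which is not a translocon gene. The channel subunit *sec61a1* was at 123 ± 18.0 CPM in mutants and 74.0 ± 4.09 CPM in wild-type siblings (log2 fold change 0.73, edgeR adjusted p = 3.89e-05), and *ssr4* of the translocon-associated complex had a log2 fold change of 0.63 (edgeR adjusted p = 0.00191). The gene that fell, *get1*, is a receptor for tail-anchored proteins (log2 fold change -0.48, edgeR adjusted p = 0.0195), and its call was lost without mutant 1 (edgeR adjusted p = 0.0597) and without wild-type 3 (edgeR adjusted p = 0.0684). The number that rose was 6 without mutant 2 and 5 without mutant 4.

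ER-associated degradation, the pathway of *sel1l*, was nearer to the background of all genes. Of its other 42 tested genes 7 rose and 3 (*man1b1a*, *ubac2* and *march6*) fell, with a median log2 fold change of 0.14. *vcp*, the ATPase that pulls substrates out of the membrane, was at 228 ± 19.8 CPM in mutants and 165 ± 4.22 CPM in wild-type siblings (log2 fold change 0.47, edgeR adjusted p = 0.000174). *syvn1*, the ligase that *sel1l* serves, had a log2 fold change of 0.30 (edgeR adjusted p = 0.0286), a call lost without mutants 2 or 4 or wild-types 1, 3 or 4 (edgeR adjusted p of 0.0505 to 0.0822). *herpud1*, another partner of that ligase, had a log2 fold change of 0.22 and did not pass (edgeR adjusted p = 0.16). *man1b1a*, a mannosidase that trims glycans, had a log2 fold change of -0.51 (edgeR adjusted p = 0.00189). The number that rose was 4 without mutant 2, wild-type 1 or wild-type 3 or in limma on TPM, 3 without mutant 4 and 14 with libraries scaled by their totals alone. The number that fell was 1 without mutant 3, mutant 4, wild-type 1, wild-type 2 or wild-type 4.

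**Figure D3:**
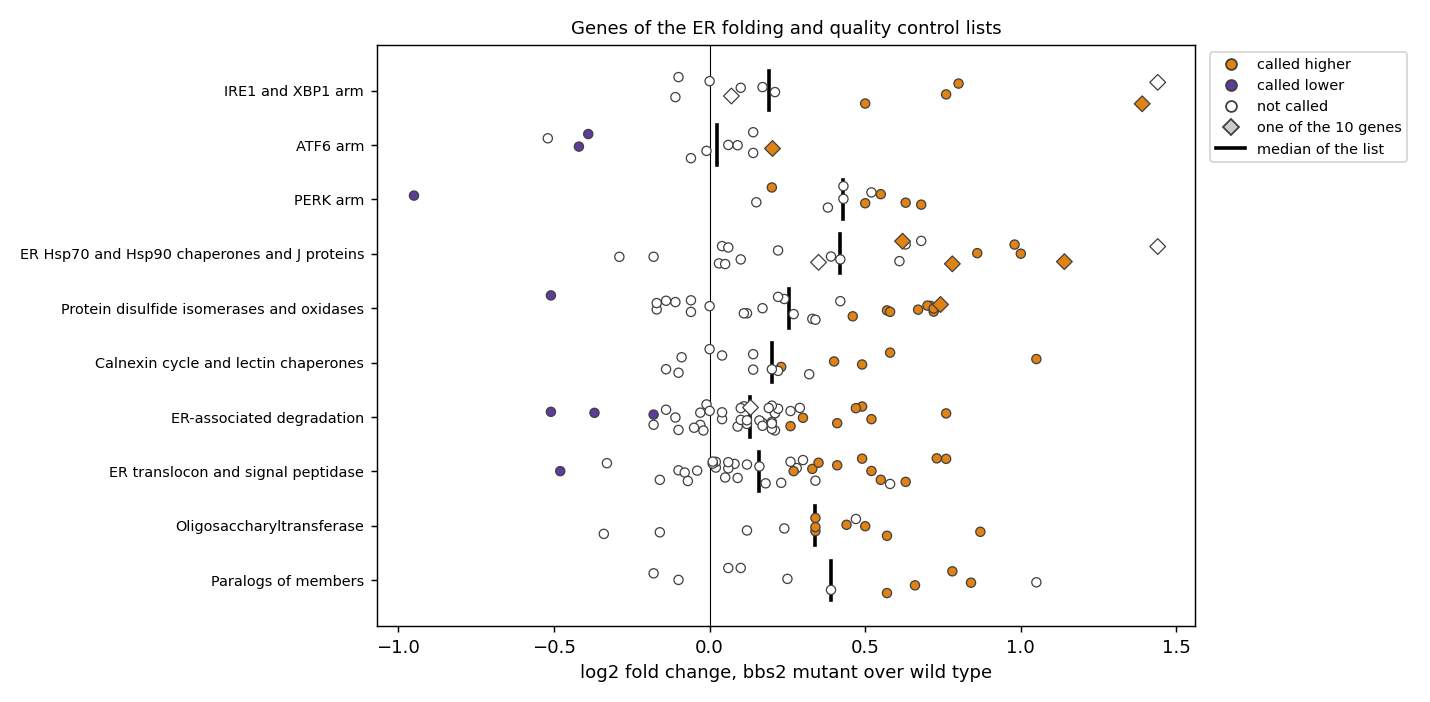
Log2 fold change, *bbs2* mutant over wild type, of every tested gene in each ER list (rows), with called genes filled (orange higher, purple lower), the 10 genes as diamonds and the median of each list as a black line. The medians lie between 0.02 for the ATF6 arm and 0.43 for the PERK arm.

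In the Ire1 and Xbp1 list, 3 of 9 tested genes other than *xbp1*, *ern1* and *dnajb9b* rose. These were *sec61b*, a translocon subunit (log2 fold change 0.76, edgeR adjusted p = 0.0118), *bloc1s1*, a transcript that Ire1 cuts in mammals (0.80, edgeR adjusted p = 0.0264), and *rtcb*, the ligase that joins the *xbp1* exons (0.50, edgeR adjusted p = 0.0436). *edem1*, a mammalian target of Xbp1, did not pass (log2 fold change 0.17, edgeR adjusted p = 0.477). The calls of *bloc1s1* and *rtcb* were lost in part of the alternatives. That of *bloc1s1* was lost without mutants 2 or 3 or wild-types 2 or 3 (edgeR adjusted p of 0.089, 0.0717, 0.0533 and 0.0663). That of *rtcb* was lost without any single library other than mutant 2 (edgeR adjusted p between 0.0506 without wild-type 3 and 0.115 without mutant 4).

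In the Atf6 list none of the 9 other tested genes rose in edgeR (none at an unadjusted p under 0.05) and 2 fell, with a median of -0.01. Both are subunits of NF-Y, a factor that binds DNA beside Atf6. *nfyc* was at 85.7 ± 5.11 CPM in mutants and 112 ± 3.64 CPM in wild-type siblings (log2 fold change -0.39, edgeR adjusted p = 0.00061), and *nfya* had a log2 fold change of -0.42 (edgeR adjusted p = 0.0167), which did not pass without mutant 2 (edgeR adjusted p = 0.0536) or wild-type 4 (edgeR adjusted p = 0.0507). The proteases that cut Atf6, *mbtps1* and *mbtps2*, had log2 fold changes of 0.06 and -0.06 and did not pass the test.

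In the Perk list 5 of 11 tested genes rose and 1 fell. The kinase *eif2ak3* was at 106 ± 11.7 CPM in mutants and 72.5 ± 17.0 CPM in wild-type siblings (log2 fold change 0.55, edgeR adjusted p = 0.019). Its groups overlapped in CPM, with mutant 4 at 93.1 and wild-type 4 at 94.8 CPM, but not in TPM. This call was lost without mutant 1 (edgeR adjusted p = 0.0538), without wild-type 1 (edgeR adjusted p = 0.0578) and with a replicate block (edgeR adjusted p = 0.0542). The kinase's substrate *eif2s1b* (0.68), the oxidative stress factor *nfe2l2a* (0.63) and the pseudokinase *trib3* (0.50) rose on the log2 scale with edgeR adjusted p of 0.000535, 0.000755 and 0.00201. *atf4b* had a log2 fold change of 0.20 (edgeR adjusted p = 0.0342), a call lost without any single library other than mutant 3 or wild-type 3 (edgeR adjusted p of 0.0578 to 0.102). The transcription factor *atf4a* (log2 fold change 0.15, edgeR adjusted p = 0.623) and the stress factor *ddit3*, known as CHOP (0.38, edgeR adjusted p = 0.0531), did not pass. However, *ddit3* passed in 7 of 16 alternatives. Among these were the fits without mutant 2 (edgeR adjusted p = 0.0215) and without wild-type 2 (edgeR adjusted p = 0.0207). It also passed in DESeq2 (adjusted p = 0.0473) and in voom (limma adjusted p = 0.0494). *chac1*, a glutathione-degrading enzyme that is a target of Atf4 and CHOP in mammals, fell to 136 ± 27.7 CPM in mutants, against 263 ± 55.0 CPM in wild-type siblings (log2 fold change -0.95, edgeR adjusted p = 0.00536).

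Ratios to paralogs set each gene beside a close relative. Cytosolic *hspa8*, the Hsc70 counterpart of BiP, was at 896 ± 74.8 CPM in mutants and 566 ± 9.21 CPM in wild-type siblings (log2 fold change 0.66, edgeR adjusted p = 4.29e-06), and cytosolic *hsp90ab1* at 612 ± 60.7 CPM in mutants and 356 ± 18.9 CPM in wild-type siblings (log2 fold change 0.78, edgeR adjusted p = 2.35e-06). The log2 ratio of *hsp90b1* to *hsp90ab1* was -3.53 in mutants and -3.54 in wild-type siblings, a difference of 0.01 (two-sided exact permutation p = 0.971). The log2 ratio of *hspa5* to *hspa8* was -3.92, -3.93, -4.26 and -3.89 in mutants, against -3.99, -4.30, -4.73 and -4.99 in wild-type siblings. The groups overlapped in wild-type 1, and the difference of 0.50 did not pass (two-sided exact permutation p = 0.0571, adjusted 0.286 over 5 ratios), where 4 against 4 libraries can reach 0.0286 at best.

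The other ratios did not pass either. The difference, mutant minus wild-type, was 0.17 for *ern1* over *ern2*, 0.23 for *dnajc3a* over *dnajc3b* and 0.27 for *sdf2l1* over *sdf2* (two-sided exact permutation p of 0.4, 0.343 and 0.4). The paralogs *ern2*, *dnajb9a*, *dnajc3b* and *sdf2* did not pass the test on their own, with log2 fold changes of -0.10, 0.10, 0.39 and 0.06. *dnajc3b* passed without wild-type 3 (edgeR adjusted p = 0.0343). *dnajb9b* had too few counts for a test of its ratio to *dnajb9a*, which averaged -0.73 in mutants and -2.36 in wild-type siblings on the log2 scale.

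**Figure D4:**
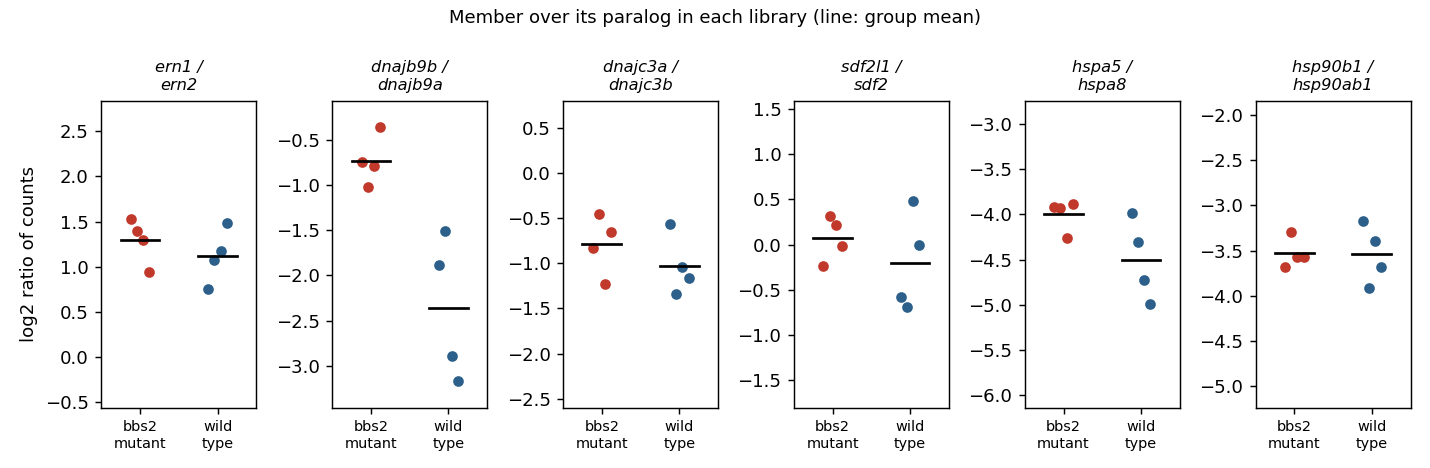
Log2 ratio of the counts of each gene to those of its paralog in every library, *bbs2* mutants in red and wild-type siblings in blue, with the group mean as a line; each panel spans the same range of log2 units. The lines for *hsp90b1* over *hsp90ab1* lie at -3.53 and -3.54, and those for *hspa5* over *hspa8* at -4.0 and -4.5 with overlapping points.

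As a description of which transcripts followed BiP, the genes outside the 10 with the highest Pearson r to *hspa5* in log2 CPM over the 8 libraries were *tes* (0.982), *tnfrsf1a*, a receptor of tumor necrosis factor (0.981), *vegfab*, a vascular growth factor (0.981), *gpr182* (0.981) and *mafbb* (0.980). Since the 8 libraries fall into 2 genotypes, any gene that differs between them shares in such a value. Their log2 fold changes were 1.04, 1.54, 1.03, 2.13 and 2.11. In wild-type siblings *gpr182* had 6 to 15 counts per library and *mafbb* 6 to 13. Both passed the filter on low counts through the mutants, which favoured values above 0 for them. Of 16106 genes ranked by r to *hspa5*, *pdia4* was number 12 and *xbp1* number 27, while *hsp90b1* was number 768 and *ern1* number 7178.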

How the data were processed

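Retinal RNA of 4 *bbs2* mutant and 4 wild-type samples was analysed in the groups of the sample labels. The authors aligned reads with STAR to GRCz11 (Ensembl annotation) and deposited raw gene counts. Which strand setting STAR used was not stated. The authors also deposited TPM, used here for levels per length and as an alternative. Their normalized counts, and their table of comparisons, which holds fold changes and p-values from DESeq2 1.30.1 (R 4.0.4), were not used.

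The test was the robust quasi-likelihood test of edgeR 4.0.16 in R 4.3.3 on genotype alone, after TMM scaling and removal of genes below a minimum count of 10. P-values were adjusted by Benjamini-Hochberg over 17144 genes (FDR 0.05). CPM were computed after TMM. Ratios to paralogs were log2 ratios of counts plus 0.5, tested by an exact permutation test over 70 arrangements. Alternatives were other scalings, no filter, a replicate block, DESeq2 1.42.0, limma 3.58.1 (voom, and log2 of TPM plus 0.1), a non-robust fit and each library left out. The edgeR fit was tested on simulated data, in which 16612 of 16811 genes had no change set. It called 30.5% of the genes given a log2 fold change of 0.5 in either direction, and 75.6% of those given 1. A gene that did not pass can therefore still differ by such an amount. The simulation changed far fewer genes than the 2603 called higher and 2221 called lower in the data. This made its adjustment stricter, so the shares it called may be too low for the data.

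Replicate libraries were not duplicates of each other (chi-square per degree of freedom 5.4 to 11.4). The study describes its 4 samples of pooled retinas as independent, and p-values measure the spread between these samples. The 10 genes and all lists were chosen with earlier results of these data known. Named genes are the 10, up to 4 called genes per list and direction by smallest p, paralogs, and the 5 genes most like *hspa5* whose mean log2 CPM was 1 or more. *edem1*, *mbtps1*, *mbtps2*, *atf4a*, *atf4b*, *ddit3*, *creld2*, *canx*, *syvn1* and *herpud1* were named after their values were seen. In the RefSeq table of GRCz12tu, used for names and neighbours only, 10 of 10 genes matched, none lay on the chromosome of *bbs2*, and *hspa5*, *hsp90b1* and *dnajb9b* overlapped another gene, so their counts could include reads of it.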

Additional observations from a re-analysis of the deposited data

How the results depend on the processing

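Over 16 alternatives *xbp1* (log2 fold change 1.22 to 1.56), *hspa5* (0.99 to 1.3), *hsp90b1* (0.67 to 0.90) and *pdia4* (0.67 to 0.84) kept their direction and their call. The number of the 10 genes called higher was 4 to 7: 7 with library totals and with voom, 5 with DESeq2, without a filter and on TPM, and 4 to 6 with single libraries left out, 4 being without mutant 2. *dnajb9b* was also called with library totals (adjusted p = 0.0495) and with voom (adjusted p = 0.0415), and *ern1*, not called anywhere, had values from -0.01 to 0.18. Over all tested genes the number lower in mutants was 1335 with library totals and 1410 with limma on log2 TPM, against 2221. In the ER lists apart from the 10 genes the number higher was 71 with library totals, against 46, and 30 to 46 with single libraries left out; the number lower was 4 with library totals and 5 on TPM, against 8, and 5 to 6 with single libraries left out. Of 42 called list and paralog genes followed through the alternatives, 29 kept the same call under every alternative and none reversed. With the replicate block, 5 of the 10 genes were called, *atf6* being lost (adjusted p = 0.0683), and *hspa5* had a log2 fold change of 1.15. Same-numbered libraries deviated from their group means with correlations of 0.06, -0.07, 0.06 and 0.06, and 2 of 4 matched their own number best, so the numbers were not taken as pairs. The causes of these differences were not tested. *canx* and *herpud1* passed with library totals (adjusted p of 0.0179 and 0.0367). Depth limits *dnajb9b*, with 1 to 24 counts per library.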
